A study of Homo sapiens with 10 samples.

Results

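CBP30 and I-CBP112 were compared with each other at the same concentration, 2 µM, after 48 h in K562 cells, an established human line from chronic myeloid leukemia. Both compounds bind the bromodomains of CREBBP and EP300. The comparison used 4 of the 10 samples of the series, 2 for each compound, with no DMSO sample in the contrast, so it answers which genes the compounds set to different levels rather than which genes either changed. These 2 compounds were the 1 pair compared. The other 6 samples were 2 each of DMSO vehicle, 5 µM CBP30 and 5 µM I-CBP112, all of the same line and treated for the same time. The samples of a group were labelled biological replicates, and polyadenylated RNA was sequenced from each. Values were FPKM, fragments scaled to transcript length and library size, and as no counts were in the table the sequencing depth was unknown. All cells came from 1 line, and the RNA does not show whether a level differed in every cell or in a portion of them.

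CREBBP and EP300 are closely related lysine acetyltransferases that transcription factors bring to enhancers. Their catalytic domain acetylates histones, and their bromodomain, a pocket that recognizes acetylated lysine, helps to hold them on chromatin that is already acetylated. In erythroid cells they are cofactors of GATA1, the zinc finger factor that drives globin, heme and red cell membrane genes, and K562 cells carry such a program in part. MYC, a basic helix-loop-helix factor that binds E-box sequences together with MAX, is known for raising ribosome biogenesis and nucleotide synthesis, and in leukemia lines it is often kept high by enhancers.

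A gene was called when its adjusted p was under 0.05 (limma on log2(FPKM + 1) with Benjamini-Hochberg adjustment over the 12392 genes tested) and both samples of a compound lay beyond both samples of the other. Differences are CBP30 minus I-CBP112 of log2(FPKM + 1) values, and for genes with low FPKM they are smaller than the true change. Of the 12392 genes, 1136 were higher with CBP30 (9.17% of those tested) and 1304 were lower (10.5%). At any p, both CBP30 samples lay above both I-CBP112 samples in 3565 genes and below them in 3425. Every called gene thus lacks overlap by rule, and that rule removed no gene with an adjusted p under 0.05. Most differences were modest. The median was 0.40 among the higher genes (quartiles 0.31 and 0.52) and −0.43 among the lower genes (quartiles −0.57 and −0.32), and only 28 and 43 genes differed by 1 or more. Relative to DMSO, the higher genes had a median change of 0.49 with CBP30 and 0.08 with I-CBP112, and the lower genes of −0.51 and −0.09. These changes use the same treated samples as the contrast and share the DMSO samples, so they describe where each level lay and are not separate evidence. The counts depended on the spread assumed. Without replicate 1 or replicate 2 of I-CBP112, 197 and 289 genes were higher and 302 and 365 were lower, without replicate 2 of CBP30 these counts were 3725 and 3380, and a fit of the 4 samples alone called 32 and 54.

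Replicate 1 of 2 µM CBP30 stood apart from the other 3 libraries of the comparison. It differed from replicate 2 along transcript length (across genes rho = −0.446 by Spearman's method, against 0.232 between the I-CBP112 replicates), and EEF1A1, the abundant translation elongation factor, was listed at 0 in it, while the remaining 3 samples held 5673 to 6661 FPKM. Genes with a known length were split into 5 equal groups by it. That length was the median over a gene's GENCODE transcripts, protein-coding ones where present, and not the length of the transcript expressed. It was 363.5 bases for FASN and 846 for CREBBP, so the group and the length correction of a single gene are approximate. In the group with the shortest transcripts, replicate 1 lay above the I-CBP112 mean by a median of 0.16 and replicate 2 by 0.02, and in the group with the longest transcripts the medians were −0.24 and −0.02. The share called higher went from 12.7% in the shortest to 3.69% in the longest group, while the share called lower went from 7.22% to 18.4%. Without replicate 1, these shares were 13.0% and 8.23% for higher genes, and 11.2% and 16.4% for lower genes. Of the 1136 higher genes, 922 were also called without replicate 1, as were 1080 of the 1304 lower genes. After the length trend was removed from each sample, 969 of the 1092 higher genes with a known length and 1113 of 1247 lower genes kept their call. All 10 markers of K562 cells were at 5 FPKM or above in all 4 samples, with sums of 714 to 928 with CBP30 and 1182 to 1302 with I-CBP112. The T cell marker sum was 22.2 to 29.5 with CBP30 and 17.0 to 17.5 with I-CBP112, nearly all of it CD3D with CD2 at 0, the epithelial sum was 565 to 762 and 528 to 558, from KRT8, KRT18 and EPCAM, and B cell and fibroblast sums stayed under 2 FPKM in every sample. The monocyte sum was 46.8 to 47.8 with CBP30 and 46.6 to 47.8 with I-CBP112, nearly all of it LYZ. The part of these markers in the differences was not tested.

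**Figure D1:**
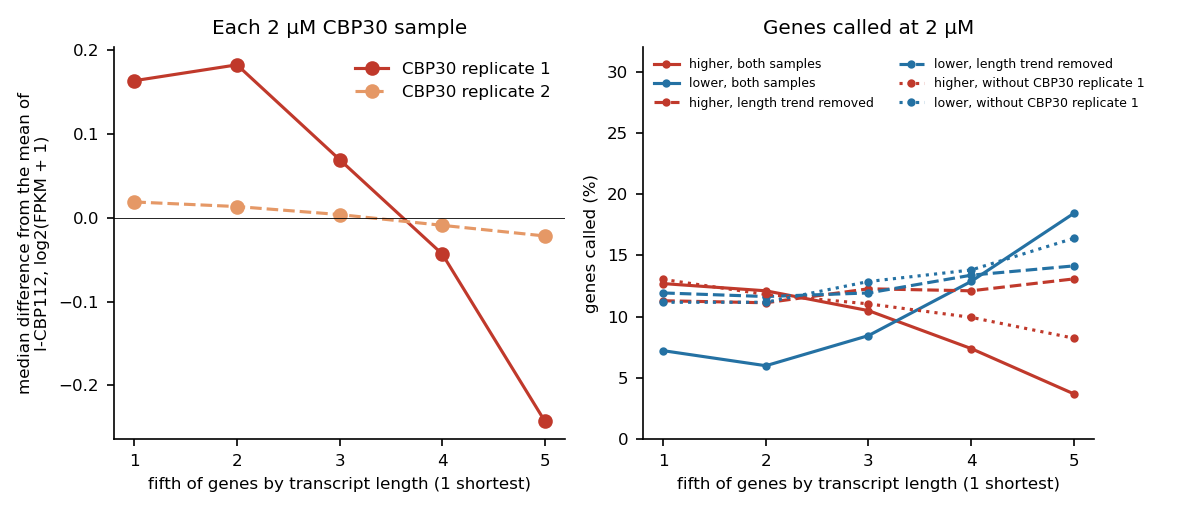
Genes were divided into 5 equal groups by transcript length (x axes, 1 is the shortest). The left panel plots the median difference of each 2 µM CBP30 sample from the I-CBP112 mean on the log2(FPKM + 1) scale, where replicate 1 went from 0.16 to −0.24 and replicate 2 from 0.02 to −0.02. The right panel plots the percentage of genes called higher (red) or lower (blue) with CBP30 from both samples (solid lines), with the length trend removed (dashed) and without replicate 1 (dotted), and the solid lines spread most at the longest transcripts, to 3.69% and 18.4%.

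The genes that stood highest with CBP30 included signalling and chromatin genes. LTB, which encodes the membrane-anchored cytokine lymphotoxin beta, was at 10.4 and 5.00 FPKM with CBP30 and at 0.908 and 0.460 with I-CBP112, a difference of 2.31 (standard error 0.283, adjusted p = 0.00158). The DMSO samples, at 0.800 and 0.341 FPKM, overlapped with I-CBP112. ID3, an inhibitor of helix-loop-helix factors that itself cannot bind DNA, was at 18.0 and 12.5 FPKM with CBP30 and at 4.20 and 4.13 with I-CBP112. SOCS1, a feedback inhibitor of JAK kinases, was at 175 and 112 FPKM with CBP30 and at 53.4 and 52.0 with I-CBP112. For both genes the CBP30 replicates were further apart than the I-CBP112 replicates but well above them, with differences of 1.63 (adjusted p = 0.000393) and 1.40 (adjusted p = 0.00122). CD24, a small surface glycoprotein, was close between replicates, 367 and 366 FPKM with CBP30 and 159 and 162 with I-CBP112, which is 2.28 times the I-CBP112 mean (difference 1.19, standard error 0.0606, adjusted p = 3.78e-05). With DMSO it was at 82.0 and 86.5 FPKM, so both compounds lay above the vehicle and CBP30 above I-CBP112.

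Among the remainder of the 12 highest genes, differences lay between 1.20 and 1.34. HIST1H4H, a histone H4 gene, was at 139 and 126 FPKM with CBP30 and at 52.3 and 52.2 with I-CBP112, without overlap (difference 1.33, adjusted p = 3.89e-05), and HIST1H3D, a histone H3 gene, differed by 1.25. Of 46 tested genes with HIST1, HIST2 or HIST3 symbols, counted after the values were seen, 19 were higher and 0 lower. That count includes HIST1H4H and HIST1H3D, and 9.17% of all tested genes were higher. With the length trend removed, 16 of these histone genes were higher. MT2A, a metallothionein that binds zinc, SAT2, of the polyamine acetyltransferase family, IFI27L2, related to an interferon-inducible gene, and BRP44 (MPC2), a subunit of the mitochondrial pyruvate carrier, differed by 1.34, 1.29, 1.29 and 1.22. BATF3, an AP-1 family transcription factor, was at 17.2 and 13.1 FPKM with CBP30 and at 5.48 and 5.46 with I-CBP112 (difference 1.31, adjusted p = 0.000954). EIF4EBP3, which binds the cap-binding factor EIF4E, was at 11.0 and 6.75 against 4.64 and 2.14 FPKM (difference 1.20, adjusted p = 0.0285). Of the 12, EIF4EBP3 and IFI27L2 lost the call without 1 of the samples, EIF4EBP3 without replicate 1 of CBP30 (adjusted p = 0.0586) and both without replicate 2 of I-CBP112 (adjusted p = 0.148 and 0.0554). In the fit of the 4 samples alone 7 were still called, and MT2A, SOCS1, IFI27L2, HIST1H3D and EIF4EBP3 were not.

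The genes that stood lowest with CBP30 included several known from blood cells. SNAR-H, a small noncoding RNA gene with near-identical copies, was listed at 0 in both CBP30 samples and at 25.6 and 17.0 FPKM with I-CBP112, but also at 15.1 and 0 FPKM in the DMSO samples. LOC283214, an uncharacterized gene, was listed at 0 and 0.0599 FPKM with CBP30, at 8.38 and 14.0 with I-CBP112 and at 0 in both DMSO samples. GRAP2, an adaptor of immune receptor signalling, was at 2.51 and 2.77 FPKM with CBP30 and at 10.2 and 10.9 with I-CBP112 (difference −1.67, standard error 0.0842, adjusted p = 3.78e-05). Both compounds lay below the DMSO mean of 17.3 FPKM. HEMGN, a nuclear protein of hematopoietic cells, was at 6.03 and 6.88 FPKM with CBP30, 21.2 and 22.1 with I-CBP112 and a mean of 44.3 with DMSO (difference between the compounds −1.60). ACSM3, a mitochondrial acyl-CoA synthetase and the most abundant of the 12, was at 146 and 156 FPKM with CBP30, 374 and 404 with I-CBP112 and a mean of 462 with DMSO (difference between the compounds −1.36, adjusted p = 3.78e-05).

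PRG2, the eosinophil major basic protein, was at 2.03 and 1.63 FPKM with CBP30 and at 6.24 and 7.30 with I-CBP112. S100P, a calcium-binding protein, was at 7.76 and 6.97 against 22.0 and 20.1 FPKM. MS4A3, a membrane protein of granulocyte and monocyte progenitors, was at 10.0 and 10.7 against 27.5 and 26.9 FPKM. These 3 genes had differences of −1.46, −1.40 and −1.31 (limma adjusted p = 0.000504, 0.000221 and 5.3e-05). GLT25D2 (COLGALT2), a collagen galactosyltransferase, and NAV1, a microtubule-associated protein, differed by −1.54 and −1.35. B7H6 (NCR3LG1), the ligand of an activating receptor of natural killer cells, was at 3.09 and 8.58 FPKM with CBP30 and at 16.4 and 14.5 with I-CBP112 (difference −1.39, adjusted p = 0.0164). B7H6 lost its call in the fit of the 4 samples alone (adjusted p = 0.143) and without replicate 1 or 2 of I-CBP112 (adjusted p = 0.114 and 0.0723), SNAR-H lost it without either of these (adjusted p = 0.120 and 0.0760), and the other 10 of the 12 lowest genes, LMO2 among them, kept it in each of these fits.

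**Figure D2:**
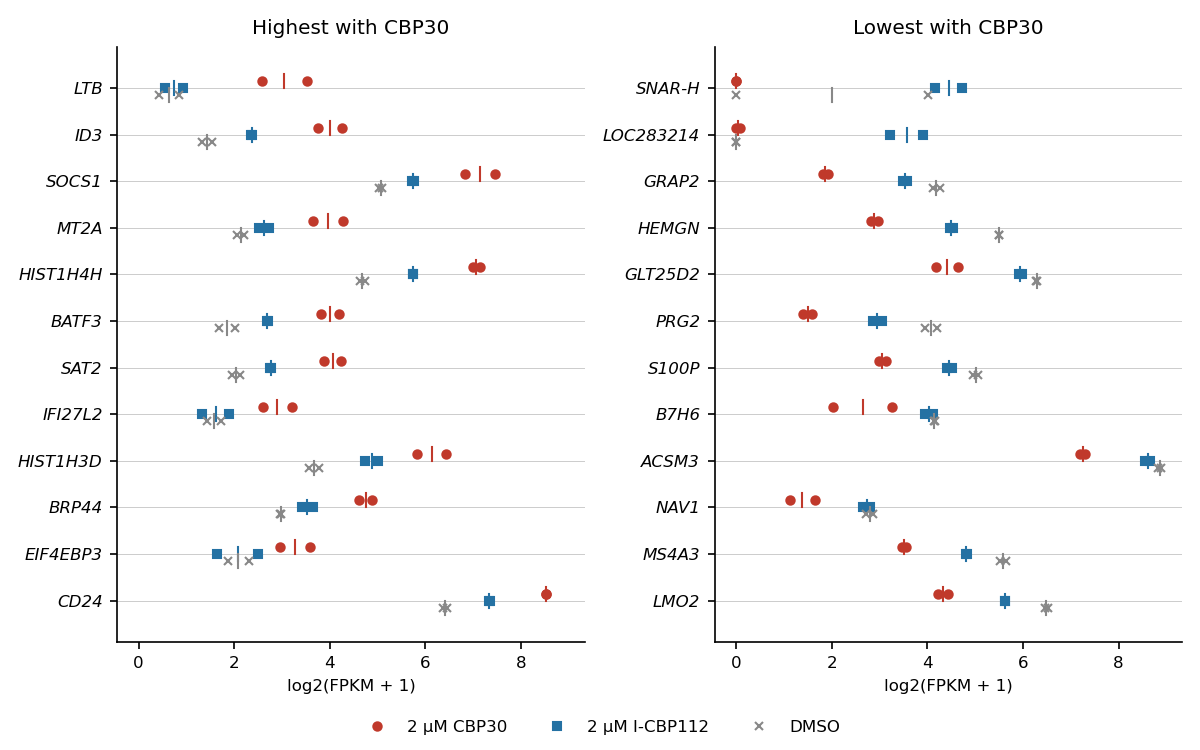
Level of the 12 genes with the largest positive (left) and negative (right) difference, among called genes at 5 FPKM or more in the higher group, as log2(FPKM + 1). Each symbol is 1 sample of 2 µM CBP30 (red circles), 2 µM I-CBP112 (blue squares) or DMSO (grey crosses), and the vertical ticks are group means. For most genes the I-CBP112 samples lay between DMSO and CBP30, whereas SNAR-H spread between 0 and 15.1 FPKM in the DMSO samples.

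Erythroid transcription factors were the list with the most negative median at 2 µM. Of the 14 tested, 9 were lower with CBP30 (64.3%, against 10.5% of all tested genes) and 0 higher. The median was −0.55, against a median of 0.01 over all genes tested. LMO2, the LIM protein that bridges GATA1 and TAL1 in the erythroid complex, was at 20.6 and 17.7 FPKM with CBP30 and at 48.5 and 48.3 with I-CBP112 (difference −1.30, standard error 0.0743, adjusted p = 5.3e-05). GATA1 was at 105 and 85.3 FPKM with CBP30 and at 138 and 151 with I-CBP112, without overlap, which is 0.659 times the I-CBP112 mean (difference −0.60, adjusted p = 0.00485). GFI1B, a repressor of erythroid and megakaryocyte cells, NFE2, which acts at the globin locus control region, and KLF1, an activator of the adult beta globin gene, differed by −0.85, −0.79 and −0.73. MYB, a progenitor factor, had the smallest difference among the 9, with 113 and 121 FPKM against 133 and 136 (−0.20, adjusted p = 0.0471). TAL1, chosen after its values were seen, was at 16.9 and 18.8 FPKM with CBP30 and at 18.1 and 17.0 with I-CBP112, so these groups overlapped, with a difference of 0.02 and a 95% confidence interval of −0.13 to 0.17. The list had 10 lower genes without replicate 1 of CBP30, 6 and 7 without replicate 1 and 2 of I-CBP112, and 1 in the fit of the 4 samples alone. KLF1 lost its call without either I-CBP112 replicate (adjusted p = 0.0510 and 0.0581), and so did MYB (adjusted p = 0.170 and 0.177).

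Genes of globin, heme and the red cell membrane were less uniform. Of the 31 tested, 13 were lower with CBP30 (41.9%, against 10.5% of all tested genes), 1 was higher and 17 were not called. The median was −0.33. In the fit of the 4 samples alone 1 was lower and 0 higher. HBZ, the embryonic zeta globin, was at 174 and 111 FPKM with CBP30 and at 275 and 318 with I-CBP112 (difference −1.08, adjusted p = 0.00598). SPTB, the beta spectrin of the red cell membrane skeleton, was at 7.50 and 8.47 against 15.3 and 14.5 FPKM (difference −0.83, adjusted p = 0.000287). HBD, the delta globin, was low in all samples, at 0.147 and 0.456 against 1.45 and 1.64 FPKM (difference −0.98, adjusted p = 0.00673). ALAD, an enzyme of heme synthesis, was the member called higher, at 14.5 and 14.3 against 9.83 and 8.98 FPKM (difference 0.57, adjusted p = 0.00117), while the other heme enzyme genes tested were not called. The embryonic epsilon globin gene HBE1, chosen after its values were seen, was at 165 and 123 against 130 and 139 FPKM, which overlapped (difference 0.08, 95% confidence interval −0.18 to 0.35). Without replicate 1 of CBP30 24 genes were lower, without replicate 1 or 2 of I-CBP112 7 and 6, and without replicate 2 of CBP30 9 were higher. HBZ and HBD lost the call without replicate 2 of I-CBP112 (adjusted p = 0.0529 and 0.0539), and the counting of near-identical copies (HBA1 and HBA2, HBG1 and HBG2, RHD and RHCE, the glycophorins) is uncertain.

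Promoters of some of these genes are shown because the list held the letters of a GATA motif in a larger share than all tested genes. The motif searched was AGATAA or its reverse complement TTATCT, within 250 bases before the start of the canonical GENCODE transcript in hg19, for the 94.6% of tested genes with a sequence. It was found in 10 of 31 promoters of the list (32.3%) and in 4.27% of all tested genes, and among the 13 lower members in 6. Of the 1304 lower genes, 5.47% of those with a sequence held it, and of the 1136 higher genes 3.77%. These shares describe letters in a window, not binding. The promoters of HEMGN, of the 12 lowest genes (chr9:100700455-100700704, minus strand), KEL (chr7:142659451-142659700, minus strand), which encodes the Kell blood group protein, SPTB (chr14:65346626-65346875, minus strand) and EPOR (chr19:11494991-11495240, minus strand), the erythropoietin receptor, are printed 5′ to 3′ along the gene's strand and end at the base before the start, with the motif in capitals. All 4 genes were lower with CBP30, KEL at 20.4 and 21.8 against 31.2 and 31.2 FPKM and EPOR at 2.87 and 2.54 against 4.33 and 4.73 FPKM. EPOR carries the motif on the opposite strand. KEL and EPOR were chosen after their values were seen.
HEMGN: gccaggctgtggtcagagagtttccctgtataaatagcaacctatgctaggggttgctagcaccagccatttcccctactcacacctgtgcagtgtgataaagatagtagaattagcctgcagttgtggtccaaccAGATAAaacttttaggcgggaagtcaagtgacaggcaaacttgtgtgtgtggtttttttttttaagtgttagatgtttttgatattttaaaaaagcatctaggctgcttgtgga
KEL: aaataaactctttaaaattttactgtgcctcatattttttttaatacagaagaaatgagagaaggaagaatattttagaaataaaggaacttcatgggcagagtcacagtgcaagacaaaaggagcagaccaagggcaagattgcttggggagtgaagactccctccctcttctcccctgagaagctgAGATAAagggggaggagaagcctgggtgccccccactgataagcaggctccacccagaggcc
SPTB: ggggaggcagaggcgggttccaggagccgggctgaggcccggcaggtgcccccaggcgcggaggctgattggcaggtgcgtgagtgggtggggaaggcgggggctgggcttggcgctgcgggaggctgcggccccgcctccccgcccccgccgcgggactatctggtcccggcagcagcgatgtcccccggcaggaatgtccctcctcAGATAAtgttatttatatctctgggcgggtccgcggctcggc
EPOR: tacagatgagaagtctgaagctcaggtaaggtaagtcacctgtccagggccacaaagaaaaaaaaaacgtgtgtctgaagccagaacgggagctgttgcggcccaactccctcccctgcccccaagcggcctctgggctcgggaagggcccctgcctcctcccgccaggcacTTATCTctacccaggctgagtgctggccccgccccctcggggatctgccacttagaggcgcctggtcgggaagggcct

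MYC was lower with CBP30 than with I-CBP112. It was at 148 and 146 FPKM with CBP30, at 241 and 231 with I-CBP112 and at 338 and 320 with DMSO, so that all 3 groups were separate and CBP30 was at 0.623 times the I-CBP112 mean (difference −0.68, standard error 0.0612, adjusted p = 0.000351). In the fit of the 4 samples alone its adjusted p was 0.0701. Of 11 tested genes of the MYC and MAX network, 4 were lower (36.4%, against 10.5% of all tested genes) and 0 higher. Beside MYC these were MYCL1, a MYC paralog (6.86 and 6.30 against 10.7 and 11.9 FPKM, difference −0.70), MLXIP, a partner of MLX that responds to glucose (−0.61), and MNT, a repressor that competes for MAX (−0.32). In the fit of the 4 samples alone 0 genes of the network were called. MLXIP and MNT lost the call without either I-CBP112 replicate (adjusted p between 0.0767 and 0.108), leaving 2 lower genes, and without replicate 2 of CBP30 there were 8. CCND1, cyclin D1, was low but even between replicates, at 1.01 and 0.990 FPKM with CBP30 and at 3.29 and 3.28 with I-CBP112 (difference −1.10, adjusted p = 0.000351). FOSL1, an AP-1 subunit, was at 3.32 and 2.29 against 5.00 and 4.84 FPKM (difference −0.65, adjusted p = 0.0109), and its call was lost without either I-CBP112 replicate (adjusted p = 0.0841 and 0.0612).

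Ribosome biogenesis genes lay below zero as a group. Of 44 tested, 20 were lower with CBP30 (45.5%, against 10.5% of all tested genes) and 0 higher. The median was −0.25, and 38 had a negative difference. POLR1A, the largest subunit of RNA polymerase I, was at 6.56 and 10.4 FPKM with CBP30 and at 16.5 and 15.8 with I-CBP112 (difference −0.88, adjusted p = 0.00673). DDX21, a nucleolar helicase, was at 94.6 and 131 against 179 and 178 FPKM (−0.68), and MYBBP1A, a nucleolar regulator of rRNA synthesis, at 15.2 and 18.9 against 25.2 and 25.0 FPKM (−0.54). In these genes replicate 1 of CBP30 was the lower of the pair, and both replicates lay below I-CBP112. The count was 33 without replicate 1 of CBP30 and 27 with the length trend removed, but 5 without either I-CBP112 replicate, and without replicate 2 of CBP30 23 were lower and 4 higher. All 3 named genes lost the call without replicate 1 of I-CBP112 (adjusted p between 0.0617 and 0.0676), and DDX21 and MYBBP1A also without replicate 2 (adjusted p = 0.0554 and 0.0516). In the fit of the 4 samples alone 0 of the list were called. At 5 µM 36 of the list were lower. The E-box CACGTG, which reads the same on both strands, was in 4 of 43 promoters of the list, 9.30%, against 9.25% of all tested genes, 11.7% of the lower and 8.27% of the higher genes. NAT10, an RNA acetyltransferase of the nucleolus, was at 29.5 and 31.7 FPKM with CBP30 and at 38.8 and 41.8 with I-CBP112 (difference −0.39, adjusted p = 0.00480), and was chosen after its values were seen. Its promoter (chr11:34126926-34127175, hg19, plus strand), shown as an example of the list, has the E-box in capitals.
NAT10: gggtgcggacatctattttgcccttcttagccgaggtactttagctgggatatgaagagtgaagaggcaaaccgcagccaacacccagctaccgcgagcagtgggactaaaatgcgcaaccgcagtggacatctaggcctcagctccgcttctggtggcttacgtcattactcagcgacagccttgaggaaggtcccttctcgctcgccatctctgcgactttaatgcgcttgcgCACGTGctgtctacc

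Of 10 purine synthesis genes, 4 were lower and 0 higher, led by PFAS (14.3 and 16.7 against 22.2 and 21.9 FPKM, difference −0.49) and GART (102 and 111 against 140 and 142 FPKM, −0.40), enzymes of the pathway to inosine monophosphate. The lower share of purine synthesis genes was 40%, against 10.5% of all tested genes. In the fit of the 4 samples alone 0 were lower. There were 7 without replicate 1 of CBP30 and 2 without either I-CBP112 replicate. The 78 cytosolic ribosomal protein genes differed from both lists. All 78 had a positive difference, between 0.03 and 0.49 with a median of 0.22, yet 0 were called in either direction by limma. They are short, with a median transcript length of 681 bases, and without replicate 1 of CBP30 their median was 0.03, again with 0 called, whereas without replicate 2 76 were called higher. With the length trend removed their 2 µM median was 0.13, with 2 called higher, and the part of length in these differences was not tested. At 5 µM their median was −0.40, with 39 lower. The end members were RPS26, at 314 and 218 against 164 and 210 FPKM (adjusted p = 0.0618), and RPL12, at 1599 and 1301 against 1355 and 1477 FPKM (adjusted p = 0.875).

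Oncofetal and telomerase genes were lower in 7 of 8 tested (87.5%, against 10.5% of all tested genes), with a median of −0.46 and 0 higher. FGF13, an intracellular member of the fibroblast growth factor family, was at 8.01 and 7.30 FPKM with CBP30 and at 12.7 and 14.0 with I-CBP112 (difference −0.73, adjusted p = 0.000832). FGFR3, a receptor tyrosine kinase, was at 1.18 and 0.991 against 2.26 and 2.42 FPKM (−0.68, adjusted p = 0.00222). LIN28A, which blocks let-7 maturation, and IGF2BP2, an mRNA-binding protein, differed by −0.49 and −0.61, and LIN28B was the member not called. The list had 7 lower genes without replicate 1 of CBP30, and 3 and 2 without replicate 1 and 2 of I-CBP112. HMGA2, a chromatin protein also on that list, was below the filter. Of 11 tested genes of the myeloid and megakaryocyte lineages, 5 were lower, among them ITGA2B, the platelet integrin subunit, at 0.839 and 0.982 against 2.41 and 2.16 FPKM (difference −0.78, adjusted p = 0.000665), beside PRG2, S100P and MS4A3 above. The shares of these lineage genes called lower and higher were 45.5% and 9.09%, against 10.5% and 9.17% of all tested genes. CD33, a myeloid surface lectin, was higher, at 109 and 99.9 against 88.0 and 89.0 FPKM (0.23, adjusted p = 0.0339), and lost the call without either I-CBP112 replicate (adjusted p = 0.170 and 0.119). Without replicate 2 of CBP30, 4 genes of the list were higher, and with quantile normalization 0.

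Signalling genes were called in both directions. Of 25 tested MAPK feedback and AP-1 genes, 7 were higher (28%, against 9.17% of all tested genes). FOSL1 was the 1 lower gene (4%, against 10.5%), and the median was 0.16. IER3, an immediate early gene, was at 126 and 87.6 FPKM with CBP30 and at 54.8 and 56.2 with I-CBP112 (difference 0.91, adjusted p = 0.00377). The phosphatases DUSP4 and DUSP5, which inactivate MAP kinases, differed by 0.62 and 0.59, with DUSP4 at 4.84 and 4.90 against 2.73 and 2.91 FPKM. JUN was at 13.8 and 11.0 against 8.53 and 7.24 FPKM (0.59, adjusted p = 0.00951, or 0.0755 without replicate 2 of I-CBP112). The higher genes numbered 13 without replicate 2 of CBP30 and 4 without either I-CBP112 replicate, which also ended the call of FOSL1. Of 16 genes of BCR-ABL and JAK-STAT signalling, the driver pathway of this leukemia, 4 were higher, namely SOCS1, SOCS2, CISH and PIM1, all known to respond to STAT factors. SOCS2 was at 308 and 296 against 184 and 189 FPKM (difference 0.69, adjusted p = 0.000351). The lower members were BCR (15.6 and 20.1 against 25.9 and 24.5 FPKM, −0.49) and STAT3 (44.5 and 48.9 against 63.5 and 65.1 FPKM, −0.45). The lower share of this list, 12.5%, lay near the 10.5% of all tested genes, and its higher share was 25% against 9.17%. The counts became 4 higher and 5 lower without replicate 1 of CBP30, 6 and 5 without replicate 2, and 2 and 1 without either I-CBP112 replicate, where CISH, PIM1 and BCR lost the call (adjusted p between 0.0619 and 0.131).

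At 2 µM cell cycle lists exceeded the 9.17% of all tested genes called higher, with 31.6% of G1, 18.2% of replication and 24.2% of mitosis genes. The shares called lower were 10.5%, 2.27% and 0%, against 10.5% of all tested genes. At 5 µM these 3 lists had 6, 3 and 3 higher and 4, 11 and 2 lower genes. Their medians there were 0.09, −0.06 and −0.02, while 14.9% of all tested genes were higher and 19.3% lower. In the fit of the 4 samples alone 0 of the G1 and replication genes were higher. Of 19 G1 genes, 6 were higher and 2 lower, with CCNE2, a cyclin that activates CDK2, at 10.6 and 12.4 against 8.17 and 8.14 FPKM (difference 0.45, adjusted p = 0.00650). The lower G1 genes were the D cyclins CCND1 and CCND2, with CCND2 at 9.96 and 11.4 against 13.5 and 13.4 FPKM (−0.31, adjusted p = 0.0245). Of 44 DNA replication genes, 8 were higher and 1 lower, and of 33 mitosis genes 8 were higher and 0 lower, with medians of 0.07 and 0.09. RRM1, a ribonucleotide reductase subunit, was at 117 and 120 against 97.4 and 97.2 FPKM (0.28, adjusted p = 0.0105), and NDC80, of the kinetochore, at 60.8 and 56.3 against 45.9 and 46.3 FPKM (0.34, adjusted p = 0.00610). At 5 µM RRM1 and NDC80 differed by 0.12 and −0.07, and neither was called. The higher calls at 2 µM rested on having both I-CBP112 samples. Without replicate 1 of I-CBP112, 0, 0 and 0 genes of the G1, replication and mitosis lists were higher and without replicate 2 1, 0 and 1, while without replicate 2 of CBP30 the counts were 9, 20 and 15 higher and 7, 5 and 9 lower.

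The remaining lists had fewer or mixed calls, to be read against the 9.17% of all tested genes called higher and the 10.5% called lower. Cholesterol and fatty acid synthesis genes were higher in 9 of 30 and lower in 2, with TM7SF2, a sterol reductase, at 14.2 and 10.6 against 5.64 and 6.74 FPKM (difference 0.89, adjusted p = 0.00265) and FASN, the fatty acid synthase, at 40.5 and 46.1 against 58.2 and 56.7 FPKM (−0.40, adjusted p = 0.00828). Interferon response genes were higher in 6 of 26 and lower in 0, led by IFI6 (13.2 and 7.01 against 4.04 and 5.18 FPKM, adjusted p = 0.0287), and without either I-CBP112 replicate 0 of them were called. Of 32 actin cytoskeleton genes 6 were higher and 6 lower, and the lower ones included FLNA, a crosslinker of actin (35.4 and 42.5 against 57.0 and 55.8 FPKM, −0.53). With 5 µM CBP30 FLNA was instead higher, at a mean of 74.9 FPKM against 53.2 with 5 µM I-CBP112 (0.49, limma adjusted p = 0.00245). Of 18 glycolysis genes 5 were lower and 1 higher, with hexokinase HK1 at 82.3 and 86.4 against 115 and 123 FPKM (−0.50, adjusted p = 0.00141). NQO1, a quinone reductase and target of NRF2, was at 53.3 and 44.7 against 25.9 and 28.1 FPKM (0.83, adjusted p = 0.000829), the 1 member of 16 that was higher, while 2 were lower. Of 21 ATF4 stress genes 3 were lower and 0 higher, of 13 BCL2 family genes 2 and 3, of 8 HOXB genes 1 and 1, and of 5 AHR response genes 0 and 1. The shares of NRF2 genes (12.5%), ATF4 genes (14.3%), BCL2 family genes (15.4%) and HOXB genes (12.5%) that were lower lay near the 10.5% of all tested genes. Without replicate 1 of CBP30, 7 ATF4 genes were lower, and 3 AHR response and 2 HOXB genes were higher. Without replicate 1 or 2 of I-CBP112, higher calls were 2 and 2 for cholesterol and fatty acid synthesis and 0 and 1 for actin, and lower calls 2 and 3 for actin and 3 and 2 for glycolysis. Without replicate 2 of CBP30, a fit that called 3725 of all 12392 genes higher and 3380 lower, 15, 16, 17 and 10 genes of the cholesterol, interferon, actin and glycolysis lists were higher and 9, 1, 8 and 5 lower.

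The genes of the targeted proteins were not called. CREBBP was at 4.67 and 7.35 FPKM with CBP30 and at 7.69 and 6.57 with I-CBP112, which overlapped (difference −0.24, 95% confidence interval −0.59 to 0.12, adjusted p = 0.291). EP300 was at 3.92 and 7.66 against 9.28 and 8.25 FPKM, without overlap, and its difference of −0.58 did not pass the test (95% confidence interval −1.05 to −0.11, adjusted p = 0.0774). In both genes replicate 1 of CBP30 was the low sample, and without it the differences were 0.04 and −0.17. Of 16 acetyltransferase and BET-related genes, HEXIM1, an inhibitor of P-TEFb, was higher (13.7 and 12.3 against 9.64 and 10.5 FPKM, 0.34) and 2 were lower, among them KAT6A, a MYST family acetyltransferase, but 10 were lower without replicate 2 of CBP30 and 0 without either I-CBP112 replicate. The shares of the acetyltransferase and BET-related list called lower (12.5%) and higher (6.25%) lay near those of all tested genes (10.5% and 9.17%). TET1, a methylcytosine dioxygenase, was at 1.14 and 2.04 against 2.25 and 2.23 FPKM (limma adjusted p = 0.103). GAPDH, a reference gene, was at 1738 and 1473 against 1492 and 1621 FPKM and differed by 0.04 (95% confidence interval −0.20 to 0.28), a sign that turned without replicate 1 of CBP30 or replicate 1 of I-CBP112, with quantile normalization and with the length trend removed.

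The 5 µM samples gave a check of the direction in libraries that the 2 µM contrast did not use, although all samples shared 1 estimate of the spread. At 5 µM, 1842 genes were higher with CBP30 than with I-CBP112 (14.9% of those tested) and 2396 were lower (19.3%). Of the 1136 genes higher at 2 µM, 928 (81.7%) had a positive difference at 5 µM, 505 (44.5%) were called higher there as well and 24 were called lower. Of the 1304 lower genes, 1082 (83.0%) had a negative difference at 5 µM, 686 (52.6%) were called lower and 19 higher. The median at 5 µM was 0.22 for the higher and −0.27 for the lower genes. Without replicate 1 of CBP30, 893 and 1210 genes were called in the same direction at both concentrations, without replicate 2 1014 and 1145, and without replicate 1 or 2 of I-CBP112 161 and 200 higher and 252 and 270 lower. Across all 12392 genes, which are not independent, the differences at 2 and 5 µM correlated with r = 0.374 (Pearson) and rho = 0.248 (Spearman), and with r = 0.456 and rho = 0.365 after removal of the length trend. The trend with length had opposite signs at these concentrations (rho = −0.317 at 2 µM and 0.203 at 5 µM).

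**Figure D3:**
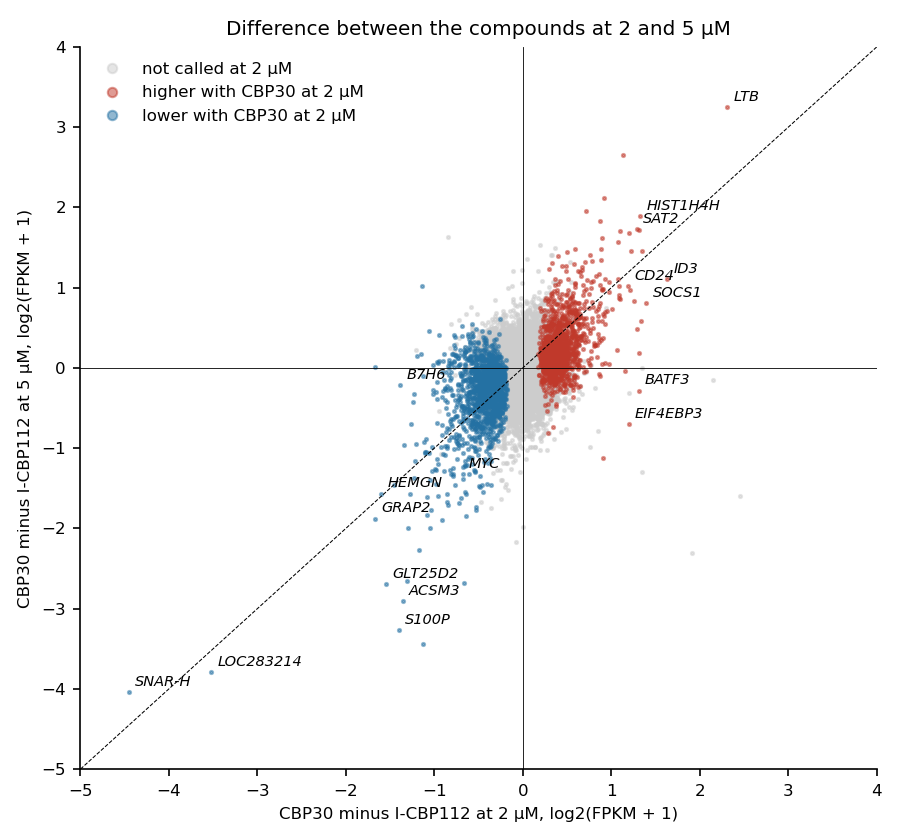
Each point is 1 gene, with the difference between CBP30 and I-CBP112 at 2 µM on the x axis and at 5 µM on the y axis, both on the log2(FPKM + 1) scale, coloured by the call at 2 µM. The dashed line marks equal differences. LTB lay above the line at 2.31 and 3.25, S100P and ACSM3 below it, and BATF3 and EIF4EBP3 changed sign. EEF1A1, listed at 0 in 1 sample, lies outside the axes.

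The difference itself was compared between the concentrations with an interaction term, which called 1179 genes over the whole table. Among the genes higher at 2 µM it called 154, of which 56 had a larger and 98 a smaller difference at 5 µM, and among the lower genes 214, with 99 larger and 115 smaller. At 5 µM the mean of ACSM3 was 44.9 FPKM for CBP30 and 344 for I-CBP112, so its difference went from −1.36 to −2.91. S100P went from −1.40 to −3.27 and MS4A3 from −1.31 to −2.65, with 2.14 and 18.7 FPKM. MYC differed by −1.32 at 5 µM, with 81.3 and 205 FPKM, and GATA1 by −1.32, with 53.1 and 134 FPKM. All 5 genes passed the interaction test, with the larger difference at 5 µM. For HEMGN and CCND1 the interaction did not pass (limma adjusted p = 0.835 and 0.848), with differences of −1.60 and −1.57 for HEMGN and −1.10 and −1.06 for CCND1. BATF3 went the other way. At 5 µM it was at 5.80 FPKM with CBP30 and 7.29 with I-CBP112, a difference of −0.28 that was not called. AFP, the fetal plasma protein, had the same pattern and was chosen after its values were seen. It was at 26.9 and 26.9 FPKM with 2 µM CBP30 and at 11.1 and 11.9 with 2 µM I-CBP112 (1.15), but at 13.4 and 13.7 FPKM with the 5 µM compounds (−0.03, adjusted p of the interaction = 0.000649 from limma). Some genes lower at 2 µM turned positive at 5 µM, namely FLNA (0.49), FASN (0.21), BCR (0.22), KAT6A (0.40) and MLXIP (0.09). Each passed the interaction test (limma adjusted p between 0.00473 and 0.0474), and of these only FLNA was called higher at 5 µM. The number of genes with an interaction was 66 and 96 without replicate 1 and 2 of I-CBP112, and 2963 and 7176 without replicate 1 and 2 of CBP30.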

How the data were processed

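Polyadenylated RNA of K562 cells was sequenced as stranded libraries in single reads by the authors, and 1 table of FPKM per gene was deposited, with 10 columns that all matched a sample (0 without one). FPKM scales reads by transcript length and library size. The submitters' processing notes name FastQC, TopHat2 2.0.10, Bowtie 1.0.0, SAMtools 0.1.19, Cufflinks 2.2.1 and Cuffnorm, with hg19 as the build. The gene annotation was not given in the sources used here. Sums of FPKM per library were 547504 to 689095, and since the table holds no counts, neither depth nor counting error could be given.

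Of 23284 genes, 12788 reached a mean of 0.5 FPKM across the 10 columns, and 396 small RNA genes (MIR, SNOR, SCARNA and RNU symbols, 5 of them host genes) were left out, which left 12392. Log2(FPKM + 1) values of all 10 samples were fitted in limma 3.58.1 (R 4.3.3) with 1 mean per condition and a variance trend (5 residual and 3.85 prior degrees of freedom), contrasting the compounds at 2 µM, at 5 µM and between these concentrations, with two-sided tests and Benjamini-Hochberg adjustment. Transcript lengths, each the median over a gene's GENCODE transcripts, were found for 11778 genes (95% of those tested). The length trend was removed per sample by a lowess curve in 1 alternative. Other alternatives were another pseudocount, other filters, median centring, quantile normalization, no variance trend, a fit of the contrast's samples alone, replicate blocks, and each sample left out. The procedure was tested on simulated data. Tables and plots were made with Python 3.11.15, pandas 2.3.3 and matplotlib 3.10.9.

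Genes were named by rule: the 12 largest differences in each direction among called genes whose higher group averaged 5 FPKM or more, genes that the study names with reference genes, and for each of 23 lists up to 4 called members per direction, or its end members where fewer were called. Members and lists were chosen with earlier results of these data known. Some genes that this rule names are not reported here.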

Additional observations from a re-analysis of the deposited data

Results flagged for a closer look

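For 11 of the genes named by size or by the study, the difference between CBP30 and I-CBP112 itself differed between 5 µM and 2 µM (limma interaction term, adjusted over all genes tested). Values are the 5 µM difference minus the 2 µM difference on the log2(FPKM + 1) scale.

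Among genes higher with CBP30 at 2 µM, HIST1H4H had a larger difference at 5 µM, by 0.56 (adjusted p = 0.0202). BATF3 changed by −1.59 (adjusted p = 0.00639) and EIF4EBP3 by −1.90 (adjusted p = 0.0351), from differences of 1.31 and 1.20 at 2 µM to −0.28 and −0.70 at 5 µM.

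For the other 8 of these 11 genes, all lower with CBP30 at 2 µM, the difference was further from 0 at 5 µM, whereas of all 214 lower genes with an interaction 115 had a smaller difference at 5 µM. It changed by −1.87 for S100P (adjusted p = 0.00117), by −1.55 for ACSM3 (adjusted p = 0.000318), by −1.35 for MS4A3 (adjusted p = 0.00111) and by −1.15 for GLT25D2 (adjusted p = 0.0132). For the transcription factors it changed by −0.72 for GATA1 (adjusted p = 0.0228), −0.70 for LMO2 (adjusted p = 0.0124), −0.65 for MYC (adjusted p = 0.00804) and −0.31 for MYB (adjusted p = 0.0496).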

How the results depend on the processing

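Under the alternatives tried, 0 of the 1136 higher and 1304 lower genes were called in the opposite direction. Most alternatives left the order of the samples of a gene unchanged, so an opposite call was not possible there. Only median centring, quantile normalization and removal of the length trend could change that order, and with them the count was also 0. A fit of the contrast's samples alone gave 32 higher, 54 lower and 270 genes with a concentration interaction, and 29 higher and 54 lower at both concentrations. Leaving out 1 sample gave 197 to 3725 higher genes, 302 to 3380 lower genes, 66 to 7176 with an interaction, and 161 to 1014 higher and 252 to 1210 lower at both concentrations, and the lone sample left was assumed to vary like the other groups. The 1179 genes with an interaction became 491 with no filter and 632 with small RNA genes kept. Samples of equal replicate number deviated with correlations from −0.28 to 0.15. These cannot tell whether the cultures were paired, because the 2 µM replicates also differed along transcript length (rho = −0.446 for CBP30 and 0.232 for I-CBP112). With the replicate block the counts were 979 higher, 1146 lower and 703 with an interaction. Because 2 µM samples of equal number deviated against each other, a crossed pairing was added after seeing the data and gave 1347, 1472 and 2047. Median centring gave 1257 higher and 1158 lower genes, 47.95% of calls lower. Of 125 named genes, 97 lost significance in the fit of the contrast's samples alone. The sign turned for 4 named genes. Without 1 sample the difference ranged from −0.516 to 0.0420 for CREBBP, from −12.55 to 0.150 for EEF1A1, from −0.0782 to 0.161 for GAPDH and from −0.121 to 0.176 for RPL12. With quantile normalization GAPDH and RPL12 were at −0.140 and −0.160 (limma adjusted p = 0.0451 and 0.0289), and with the length trend removed, with or without the replicate block, at −0.0474 and −0.0624. The cause of these shifts was not tested. With 2 samples per group and no counts, small differences and low genes are the least certain.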
